A study of Mus musculus with 18 samples.

Results

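The genes followed were *S100a8*, *S100a9*, *Ltf*, *Lcn2*, *Camp*, *Ngp*, *Chil3*, *Ly6g* and *Retnlg*, a panel of 9 S100 alarmin and neutrophil granule genes. They were taken by symbol from the authors' table of normalized read counts, in which 62197 genes were listed and 25177 carried a symbol, and each of the 9 symbols was found exactly once. S100A8 and S100A9 are small calcium-binding proteins that pair to form calprotectin, an abundant cytosolic protein of neutrophils and monocytes that sequesters zinc and manganese and is a ligand of Toll-like receptor 4. *Ltf* (lactoferrin, an iron-binding protein), *Lcn2* (lipocalin 2, which binds bacterial siderophores), *Camp* (the precursor of the cathelicidin antimicrobial peptide) and *Ngp* (a granule protein of the cystatin and cathelicidin family) encode proteins that neutrophil precursors store in secondary, or specific, granules at the myelocyte stage. *Chil3* (also called Ym1, a chitinase-like lectin) is made by neutrophils and by macrophages, *Ly6g* encodes the surface protein recognized by neutrophil antibodies, and *Retnlg* encodes a resistin-like secreted protein of granulocytes.

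The RNA was read in bulk from mouse bone marrow-derived dendritic cells, grown for 10 days in medium with a supernatant of transfected J558 cells that contains granulocyte-macrophage colony stimulating factor. Cytosolic phospholipase A2 (cPLA_2_) was present (cPLA_2_ WT) or deleted (cPLA_2_ KO) through a floxed *Pla2g4a* allele and a Cre driven by *Itgax*, so that deletion depends on *Itgax* being expressed. Donors were 6 to 8 weeks old and of either sex. Cells of each genotype were taken untreated at the end of culture (nonconfined), were confined under a roof at a height of 3 µm and taken 4 h after confinement, or were given lipopolysaccharide (LPS, 100 ng/ml) for 30 min by the labels (25 min by the methods), washed and taken on the following day. Confinement and LPS therefore also differ from the nonconfined condition in collection time and handling, and these cannot be told apart from the treatment. Each of the 6 conditions had 3 libraries, 18 in all, and the labels do not say whether replicates came from separate mice or cultures, so the p-values below measure the spread between these libraries. According to the study's methods the culture also yields granulocytes, removed as nonadherent cells, and strongly adherent macrophages, left behind when the semiadherent cells are taken as dendritic cells. Poly(A) RNA was read in a strand-specific way after 1 of 2 library kits, which the labels do not assign to samples.

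Read depth, recovered from the normalized values, ran from 33027230 to 61300021 assigned reads per library. The medians were 39851237 (nonconfined cPLA_2_ WT), 37116045 (nonconfined cPLA_2_ KO), 42049558 (confined cPLA_2_ WT) and 33672070 (confined cPLA_2_ KO). Libraries labelled LPS cPLA_2_ WT had a median of 52482280 reads and those labelled LPS cPLA_2_ KO 43169041. Per library, *S100a9* had 59699 to 205856 reads, *Ly6g* 214 to 1542 and *Retnlg* 16 to 182. Counting error was therefore small for most of the panel and largest for *Retnlg*. All 9 genes were among the 17875 genes tested (10 or more normalized counts in 3 or more libraries). Changes are log2 fold changes with their standard error (SE) from limma. "Rose" and "fell" mean an adjusted p under 0.05, and a gene was called when, in addition, its change exceeded 1 in either direction.

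Y chromosome genes did not separate the genotype labels of the LPS libraries. *Ddx3y* had a mean of 1.67 normalized counts in nonconfined and 1.36 in confined cPLA_2_ WT libraries, against 935 and 968 in the corresponding cPLA_2_ KO libraries. In the libraries labelled LPS cPLA_2_ WT it had 1271, 0 and 662 normalized counts, and in those labelled LPS cPLA_2_ KO 2.12, 1476 and 783. *Eif2s3y*, *Kdm5d* and *Uty* were high and low in the same LPS libraries. *Pla2g4a* itself was lower in cPLA_2_ KO than in cPLA_2_ WT cells without confinement (541 against 718 normalized counts, log2 fold change −0.41 ± 0.06, limma adjusted p = 0.00019) and under confinement (904 against 1373, −0.60 ± 0.06, adjusted p = 3.81e-08). Between the LPS labels it was 1042 in cPLA_2_ KO and 980 in cPLA_2_ WT (0.09 ± 0.06, adjusted p = 1.00). By the mean chi-square per gene, 4 of the 6 LPS libraries were nearest to a library of the other label. These were replicate 2 labelled cPLA_2_ WT with replicate 1 labelled cPLA_2_ KO (5.45) and the replicates 3 of both labels (6.585). The other 2 were nearest to a library of their own label, replicate 1 labelled cPLA_2_ WT to replicate 3 (13.13, against 13.67 to replicate 2 labelled cPLA_2_ KO) and replicate 2 labelled cPLA_2_ KO to replicate 3 (10.64). Between libraries of the same label the value ran up to 48.6. The groups are therefore called "libraries labelled LPS". Their results are given by label, and the change of each of the 9 genes against nonconfined cells also for all 6 together. In the nonconfined and confined conditions the Y chromosome genes separated the genotypes, so genotype and sex of the donors cannot be told apart there. *Xist* was detected in all 18 libraries, with means of 15188 to 30772 normalized counts per condition.

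Together the panel made up a sizeable part of the RNA. Its share of all normalized counts in cPLA_2_ WT libraries was 0.996% ± 0.0211 (SD, n = 3) without and 0.650% ± 0.0130 with confinement. In cPLA_2_ KO libraries it was 1.34% ± 0.0506 and 1.36% ± 0.0408. Libraries labelled LPS held 1.03% ± 0.0193 (cPLA_2_ WT) and 1.04% ± 0.0410 (cPLA_2_ KO). By mean level per kilobase of canonical transcript, *S100a9* ranked 2, *S100a8* 7, *Chil3* 22 and *Lcn2* 32 among 13407 genes of known length. *Ltf* ranked 132, *Ngp* 189 and *Camp* 366, whereas *Ly6g* ranked 3321 and *Retnlg* 8546. Since the RNA was taken in bulk, and the share of each cell type in it was not measured, fewer granulocyte-lineage cells and less RNA per cell cannot be told apart in any of the comparisons. Dendritic cell genes were present throughout: *Cd74*, the invariant chain, had a mean of 259102 normalized counts and *Itgax* 5718.

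**Figure D1:**
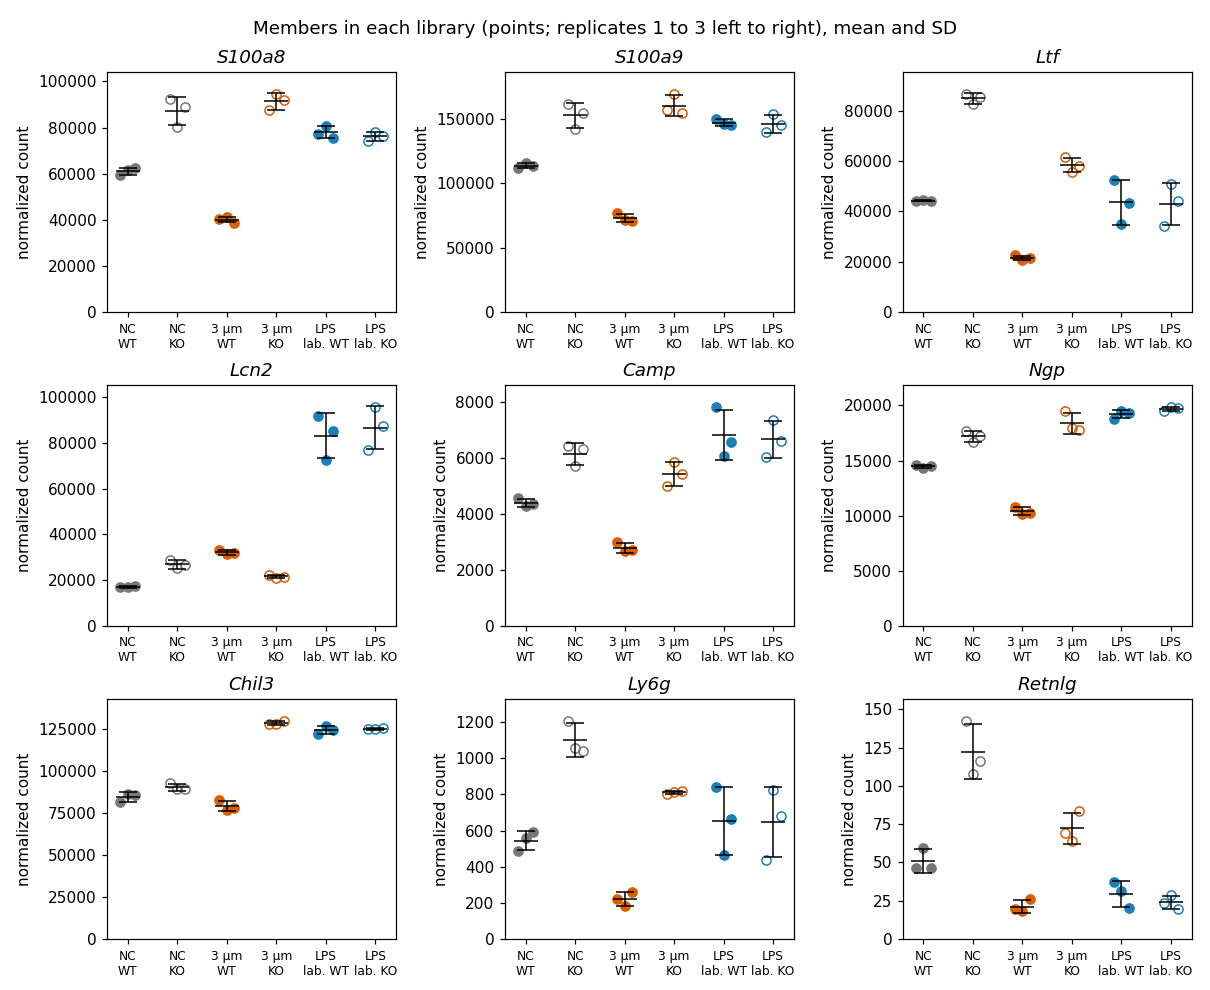
Normalized read counts (y axis, linear from 0) of the 9 genes in the 6 conditions (x axis: NC, nonconfined; 3 µm, confined; LPS lab., labelled LPS). Circles are libraries, filled for cPLA_2_ WT and open for cPLA_2_ KO labels, and lines give mean and SD (n = 3). Confined cPLA_2_ WT has the lowest mean for 8 genes, and for *Lcn2* the LPS libraries lie at 72660 to 95657, above all others.

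The first question was what confinement did to the panel in cPLA_2_ WT cells. Of the 9 genes, 8 fell and *Lcn2* rose. The S100 pair and the specific granule genes *Camp* and *Ngp* ended 1.39- to 1.58-fold lower, *Ltf* 2.05-fold lower, and *Ly6g* and *Retnlg* fell furthest. Over all genes tested, 28.4% fell and 28.2% rose. Of the panel, *Ltf*, *Ly6g* and *Retnlg* were called lower, 3 of 9, where 7.62% of all genes were. The median change was −0.64 for the 9 genes and −0.01 for all genes tested.

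For *S100a8*, the nonconfined cPLA_2_ WT libraries held 59415, 61436 and 62288 normalized counts (61046 ± 1476, SD, n = 3) and the confined ones 40510, 41086 and 38694 (40097 ± 1248). *S100a9* went from 111945, 115696 and 113124 (113588 ± 1919) to 76544, 71643 and 70714 (72967 ± 3133). For both partners of calprotectin every confined library lay below every nonconfined one, and the drop was close to the same size. *S100a8* was 1.52-fold lower (log2 fold change −0.61 ± 0.05, SE, limma adjusted p = 8.53e-10). *S100a9* was 1.56-fold lower (−0.64 ± 0.05, adjusted p = 8.69e-10).

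Among the specific granule genes, *Ltf* had 44268, 44362 and 43998 normalized counts without confinement (44210 ± 189) and 22481, 20687 and 21452 with it (21540 ± 900). *Camp* had 4549, 4276 and 4338 (4387 ± 143) and 2989, 2651 and 2711 (2784 ± 180). *Ngp* had 14610, 14353 and 14518 (14494 ± 130) and 10801, 10118 and 10268 (10396 ± 359). All 3 genes were lower in each confined library than in any nonconfined library. The fall was 2.05-fold for *Ltf* (−1.04 ± 0.11, adjusted p = 8.17e-08), 1.58-fold for *Camp* (−0.66 ± 0.08, adjusted p = 6.50e-07) and 1.39-fold for *Ngp* (−0.48 ± 0.04, adjusted p = 1.86e-09). The siderophore-binding *Lcn2*, stored in the same granules but also made by stimulated macrophages and epithelia, moved the other way. Its counts were 16748, 16769 and 17163 (16893 ± 234) in nonconfined and 33298, 31325 and 31728 (32117 ± 1042) in confined cells, without overlap. That was a 1.90-fold rise (0.93 ± 0.07, adjusted p = 7.09e-10), just under the size required for a call.

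On the authors' scale *Chil3* was nearly level, at 81422, 86592 and 85846 normalized counts (84620 ± 2794) before and 82756, 77183 and 77835 (79258 ± 3047) after confinement, and its libraries overlapped. The change was −0.09 ± 0.04 (adjusted p = 0.0491). It missed the threshold with TMM scaling (−0.07, adjusted p = 0.151), in edgeR (adjusted p = 0.108), with a pseudocount of 5 (0.0564), with no filter (0.0945), with a replicate block (0.0636) and without any 1 of 4 libraries: nonconfined replicate 2 (adjusted p = 0.168) or 3 (0.144), or confined replicate 2 (0.169) or 3 (0.152). The surface marker *Ly6g* had 488, 557 and 590 normalized counts (545 ± 51.6) and 219, 184 and 259 (221 ± 38.0), and *Retnlg* 46.5, 59.7 and 46.2 (50.8 ± 7.71) and 19.3, 18.01 and 26.1 (21.1 ± 4.32). Neither gene overlapped between conditions. *Ly6g* was 2.48-fold lower (−1.31 ± 0.19, adjusted p = 4.49e-06) and *Retnlg* 2.35-fold lower (−1.23 ± 0.26, adjusted p = 0.000301). After scaling to equal totals, the median over all genes in this comparison was −0.23, and the 9 directions were the same. As a share of all normalized counts *Chil3* did not overlap, at 0.237% to 0.255% without and 0.196% to 0.204% with confinement.

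The same comparison was made in cPLA_2_ KO cells. There the S100 pair did not pass the test, *Chil3* rose, and *Ltf*, *Lcn2* and *Retnlg* fell. That is 1 riser of 9 where 22.8% of all genes rose, and 3 fallers where 23.4% fell. No gene of the panel was called by limma, against 6.43% of all genes called higher and 5.53% called lower. At an unadjusted p under 0.05 with a change above 1 the count was also 0 in limma, edgeR and DESeq2. The median change of the panel was −0.18, with 0.01 over all genes.

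In cPLA_2_ KO cells *S100a8* had 92495, 80404 and 88853 normalized counts without (87251 ± 6203) and 87543, 94682 and 91793 with confinement (91339 ± 3591). *S100a9* had 161294, 142045 and 154880 (152740 ± 9801) and 157070, 169481 and 154389 (160314 ± 8052). The conditions overlapped for both, with changes of 0.07 ± 0.05 (adjusted p = 0.279) and 0.07 ± 0.05 (adjusted p = 0.286). The change in cPLA_2_ KO cells was more positive than that in cPLA_2_ WT cells by 0.67 ± 0.07 for *S100a8* (interaction test in limma, adjusted p = 1.43e-07) and by 0.71 ± 0.07 for *S100a9* (adjusted p = 1.48e-07).

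*Ltf* went from 86754, 82641 and 85335 (84910 ± 2089) to 61439, 55778 and 58151 (58456 ± 2843) and still fell, by −0.54 ± 0.11 (adjusted p = 0.000514). *Camp* had 6416, 5701 and 6322 (6146 ± 389) and 5008, 5871 and 5430 (5436 ± 432), which overlapped (−0.18 ± 0.08, adjusted p = 0.0857). *Ngp* had 17705, 16706 and 17235 (17215 ± 500) and 19501, 17926 and 17776 (18401 ± 956), with each confined library above each nonconfined one but a change of 0.10 ± 0.04 (adjusted p = 0.0636). It passed with a filter of 100 (adjusted p = 0.0478) and without nonconfined replicate 1 (0.0450) or confined replicate 3 (0.0434). For all 3 specific granule genes the change with confinement was more positive in cPLA_2_ KO than in cPLA_2_ WT cells. The difference between the genotypes was 0.50 ± 0.16 for *Ltf* (adjusted p = 0.0253), 0.48 ± 0.12 for *Camp* (adjusted p = 0.0039) and 0.58 ± 0.06 for *Ngp* (adjusted p = 9.45e-08). For *Ltf* it missed the threshold without confined cPLA_2_ WT replicate 2 (adjusted p = 0.0583) or confined cPLA_2_ KO replicate 1 (0.0603).

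*Lcn2* changed in the opposite sense. It fell from 28803, 25002 and 26690 (26832 ± 1905) to 22328, 20987 and 21357 (21557 ± 693) in cPLA_2_ KO cells (−0.31 ± 0.07, adjusted p = 0.00158), whereas it had risen in cPLA_2_ WT cells. The difference of −1.24 ± 0.11 (adjusted p = 6.28e-09) made it the 1 gene of the panel called in the interaction, where 6.56% of all genes were called in that direction. *Chil3* rose without overlap from 92868, 89345 and 89388 (90533 ± 2022) to 128488, 128201 and 130159 (128949 ± 1057), a 1.42-fold change (0.51 ± 0.04, adjusted p = 1.04e-09). Its change also differed between genotypes (0.61 ± 0.06, adjusted p = 2.77e-08).

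*Ly6g* had 1208, 1055 and 1040 (1101 ± 93.0) and 804, 814 and 818 (812 ± 7.38), and *Retnlg* 143, 108 and 116 (122 ± 18.05) and 69.1, 64.0 and 83.8 (72.3 ± 10.3), each lower in every confined library. *Ly6g* missed the threshold (−0.44 ± 0.19, adjusted p = 0.067). A fit without the 6 LPS libraries was added after their Y chromosome genes were seen not to follow the labels. There *Ly6g* passed at the same change (adjusted p = 0.00155), as did *Camp* (adjusted p = 0.0182). Scaling to equal totals also took both past the threshold, *Ly6g* at −0.47 (adjusted p = 0.0426) and *Camp* at −0.21 (adjusted p = 0.0280), as did a fit of the compared conditions alone. *Ly6g* passed in edgeR (adjusted p = 0.0423), and *Camp* passed without replicate 2 of either condition (adjusted p = 0.0450 and 0.0448). *Retnlg* fell (−0.75 ± 0.26, adjusted p = 0.0207) but missed the threshold without nonconfined cPLA_2_ KO replicate 1 (adjusted p = 0.0922) or without confined cPLA_2_ KO replicate 1 (0.0537) or 2 (0.0734). The change of *Ly6g* was more positive in cPLA_2_ KO cells by 0.87 ± 0.27 (adjusted p = 0.0196), which missed the threshold without nonconfined cPLA_2_ WT replicate 3 (adjusted p = 0.0503) or confined cPLA_2_ WT replicate 2 (0.0608). For *Retnlg* no difference was detected (0.48 ± 0.36, adjusted p = 0.368).

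In all, the interaction passed the test in the positive direction for 7 of 9 genes, where 10.2% of all genes did, and in the negative direction for 1, where 15.6% did. The panel's median was 0.58 and that of all genes 0.05. After scaling to equal totals the median over all genes was 0.24, and 2 genes of the panel were called, 1 in each direction. Of all 17875 genes, 506 were then called higher and 1002 lower.

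**Figure D2:**
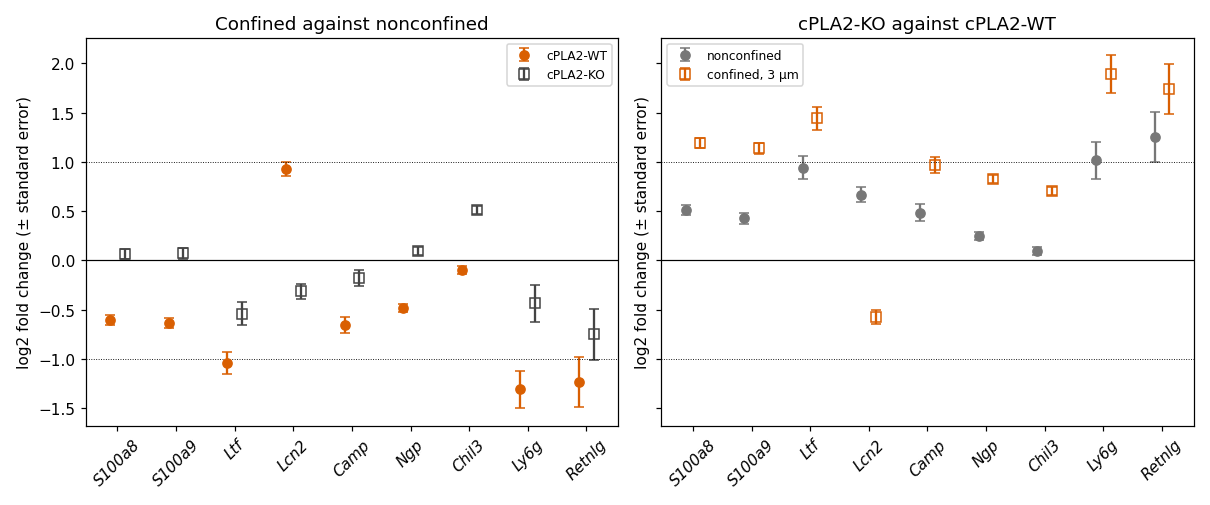
Log2 fold changes with SE (y axis) of the 9 genes (x axis), from limma with 3 libraries per condition. Left, confined against nonconfined in cPLA_2_ WT (filled circles) and cPLA_2_ KO (open squares); right, cPLA_2_ KO against cPLA_2_ WT in nonconfined (filled circles) and confined cells (open squares). Dotted lines mark changes of 1 in either direction, and *Lcn2* is the only gene of the 9 below 0 in the confined genotype comparison (−0.58).

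The genotypes were then compared directly, in cells that had not been confined. By the test 8 of the 9 genes were higher in cPLA_2_ KO cells, where 4.78% of all genes were. Every library of cPLA_2_ KO lay above every library of cPLA_2_ WT for all 9 genes, also for *Chil3*, which did not pass. How many of all genes separate in this way was not counted. *Ly6g* and *Retnlg* were called, 2 of 9, where 0.850% of all genes were called higher. The panel's median was 0.51, with −0.00 over all genes.

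*Ltf* was 1.92-fold higher in cPLA_2_ KO cells (0.94 ± 0.11, adjusted p = 2.14e-05). *Lcn2* was 1.59-fold higher (0.67 ± 0.07, adjusted p = 1.01e-05), *S100a8* 1.43-fold (0.51 ± 0.05, adjusted p = 1.62e-06) and *S100a9* 1.34-fold (0.43 ± 0.05, adjusted p = 2.66e-05). *Camp* followed at 1.40-fold (0.48 ± 0.08, adjusted p = 0.000821) and *Ngp* at 1.19-fold (0.25 ± 0.04, adjusted p = 0.000607). The largest ratios belonged to the genes that ranked lowest per kilobase. *Ly6g* was 2.02-fold higher (1.01 ± 0.19, adjusted p = 0.00192) and *Retnlg* 2.38-fold (1.25 ± 0.26, adjusted p = 0.00377). *Chil3* had a change of 0.10 ± 0.04 (adjusted p = 0.143) and passed in DESeq2 (adjusted p = 0.0449), where all 9 genes were thus higher. Without nonconfined cPLA_2_ WT replicate 1, or without nonconfined cPLA_2_ KO replicate 1, 1 gene of the panel was called in place of 2. Scaling to equal totals also left 1, where 153 of 17875 genes were called higher.

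Under confinement the genotypes stood further apart. By the test 8 of 9 genes were higher in cPLA_2_ KO cells, where 18.8% of all genes were, and *Lcn2* was lower, where 20.6% of all genes were. Again no gene of the panel overlapped between the genotypes, and the share of all genes without overlap was not counted. The 5 genes *S100a8*, *S100a9*, *Ltf*, *Ly6g* and *Retnlg* were called higher, where 2.79% of all genes were. The panel's median was 1.14 and that of all genes 0.04, or 0.19 after scaling to the same total, which turned no direction in the panel.

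*S100a8* was 2.28-fold higher in confined cPLA_2_ KO than in confined cPLA_2_ WT cells (1.19 ± 0.05, adjusted p = 1.73e-14) and *S100a9* 2.20-fold (1.14 ± 0.05, adjusted p = 9.67e-14). *Ltf* was 2.71-fold higher (1.44 ± 0.11, adjusted p = 1.02e-09), *Camp* 1.95-fold (0.96 ± 0.08, adjusted p = 4.20e-09) and *Ngp* 1.77-fold (0.82 ± 0.04, adjusted p = 3.92e-13). The S100 and specific granule genes other than *Lcn2* thus all lay higher in the confined cPLA_2_ KO cells. *Ly6g* differed most, 3.70-fold (1.89 ± 0.19, adjusted p = 5.05e-08), followed by *Retnlg* at 3.33-fold (1.74 ± 0.26, adjusted p = 1.15e-05). *Chil3* was 1.63-fold higher (0.70 ± 0.04, adjusted p = 3.89e-12). *Lcn2* was 1.49-fold lower (−0.58 ± 0.07, adjusted p = 2.06e-06), although it had been higher in cPLA_2_ KO cells before confinement. These comparisons share libraries with those of confinement and are not independent of them.

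LPS was compared with nonconfined cells within each label. The account starts with *Lcn2*, whose transcription LPS is known to induce in macrophages. Its counts were 91726, 72660 and 85324 (83237 ± 9703) in libraries labelled LPS cPLA_2_ WT and 76975, 95657 and 87432 (86688 ± 9363) in those labelled LPS cPLA_2_ KO, above every library of the other conditions. It was 4.90-fold higher than in nonconfined cPLA_2_ WT (2.29 ± 0.07, adjusted p = 7.72e-17) and 3.22-fold higher than in nonconfined cPLA_2_ KO cells (1.69 ± 0.07, adjusted p = 1.57e-14). It was the 1 gene of the panel called higher under each label, where 15% of all genes were under the cPLA_2_ WT label and 15% under the cPLA_2_ KO label.

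Against nonconfined cPLA_2_ WT, 6 of 9 genes rose (33.4% of all genes did), *Retnlg* fell (29.4% did), and *Ltf* and *Ly6g* did not pass. Against nonconfined cPLA_2_ KO, 3 rose (33.4%) and 4 fell (30.1%), and *Retnlg* was called lower, where 12.9% of all genes were. The medians were 0.37 and −0.06, with 0.03 and 0.02 over all genes. The LPS libraries have larger normalized totals than the nonconfined ones. After scaling to equal totals, the median over all genes was −0.47 under the cPLA_2_ WT label and −0.44 under the cPLA_2_ KO label. That scaling turned the direction under the cPLA_2_ WT label for *S100a8* (0.35 to −0.16), *S100a9* (0.37 to −0.14), *Ngp* (0.41 to −0.11) and *Ly6g* (0.23 to −0.28). Under the cPLA_2_ KO label it turned *Camp* (0.12 to −0.36), *Ngp* (0.19 to −0.29) and *Chil3* (0.47 to −0.01). The rises of *Camp* (0.12, adjusted p = 0.189) and *Chil3* (0.04, adjusted p = 0.293) under the cPLA_2_ WT label did not pass under equal totals. *Ltf* under that label (−0.56, adjusted p = 8.25e-05) and *S100a9* under the cPLA_2_ KO label (−0.54, adjusted p = 1.92e-09), which had not passed, then fell. The directions of *Lcn2* and *Retnlg* were the same under both scalings and both labels.

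*S100a8* had 77399, 80721 and 75534 (77885 ± 2627) normalized counts in libraries labelled LPS cPLA_2_ WT and 74128, 78120 and 76537 (76262 ± 2010) in those labelled LPS cPLA_2_ KO. *S100a9* had 150077, 145961 and 144994 (147010 ± 2699) and 139904, 153850 and 144955 (146236 ± 7061). The means of both lay between the nonconfined means of the genotypes. *S100a8* was thus higher than in nonconfined cPLA_2_ WT (0.35 ± 0.05, adjusted p = 2.21e-06) and lower than in nonconfined cPLA_2_ KO cells (−0.19 ± 0.05, adjusted p = 0.00187). *S100a9* was higher than the former (0.37 ± 0.05, adjusted p = 2.08e-06) and did not pass against the latter in limma (−0.06 ± 0.05, adjusted p = 0.313), whereas edgeR had −0.11 (adjusted p = 0.0459). As a share of all normalized counts, *S100a8* was at 0.155% to 0.158% under the LPS cPLA_2_ KO label. In nonconfined cPLA_2_ KO libraries that share was 0.233% to 0.262%, a wider gap than on the authors' scale. With all 6 LPS libraries against all 6 nonconfined ones, a comparison added after their Y chromosome genes were seen, the change was 0.08 ± 0.10 for *S100a8* (adjusted p = 0.482) and 0.16 ± 0.08 for *S100a9* (adjusted p = 0.111). In that comparison *Lcn2* was 1.99 ± 0.13 higher (adjusted p = 7.40e-10), *Chil3* 0.51 ± 0.03 (adjusted p = 7.74e-10), *Camp* 0.37 ± 0.10 (adjusted p = 0.00454) and *Ngp* 0.30 ± 0.05 (adjusted p = 7.40e-05). *Retnlg* was lower by 1.55 ± 0.29 (adjusted p = 0.000127) and *Ltf* by 0.52 ± 0.19 (adjusted p = 0.0223), and *Ly6g* did not pass (−0.29 ± 0.23, adjusted p = 0.267).

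*Ltf* spread widely within the labels, at 52409, 34871 and 43317 (43532 ± 8771) and 34306, 51002 and 43937 (43081 ± 8381). *Ly6g* did the same, at 839, 464 and 662 (655 ± 188) and 438, 824 and 680 (647 ± 195). For both genes the highest were replicate 1 labelled cPLA_2_ WT and replicate 2 labelled cPLA_2_ KO, which also had the most *Ddx3y*, and the lowest were the pair with *Ddx3y* near 0. Against nonconfined cPLA_2_ WT the changes were −0.04 ± 0.11 for *Ltf* (adjusted p = 0.767) and 0.23 ± 0.19 for *Ly6g* (adjusted p = 0.311). Without replicate 2 labelled LPS cPLA_2_ WT, *Ltf* was at 0.11 (adjusted p = 0.384) and *Ly6g* passed (0.46, adjusted p = 0.0344). Against nonconfined cPLA_2_ KO *Ltf* fell 2.00-fold (−0.997 ± 0.11, adjusted p = 1.01e-07), just short of a call, and *Ly6g* 1.75-fold (−0.81 ± 0.19, adjusted p = 0.000825). Without replicate 2 labelled LPS cPLA_2_ KO, 4 genes in place of 2 were called in that comparison. Scaling to equal totals also gave 4, 1 higher and 3 lower, where 1711 and 4346 of 17875 genes were called.

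*Camp* had 7815, 6085 and 6566 (6822 ± 893) under the cPLA_2_ WT and 6050, 7363 and 6597 (6670 ± 659) under the cPLA_2_ KO label. *Ngp* had 18770, 19479 and 19352 (19201 ± 378) and 19477, 19845 and 19736 (19686 ± 189), and *Chil3* 122177, 127122 and 124428 (124576 ± 2476) and 125102, 125085 and 125871 (125353 ± 449). *Ngp* and *Chil3* differed little among the 6 LPS libraries, the highest being 1.06 and 1.04 times the lowest. On the authors' scale, against nonconfined cPLA_2_ WT, *Camp* rose by 0.63 ± 0.08 (adjusted p = 8.72e-07), *Ngp* by 0.41 ± 0.04 (adjusted p = 1.68e-08) and *Chil3* by 0.56 ± 0.04 (adjusted p = 6.11e-11). Against nonconfined cPLA_2_ KO the values were 0.12 ± 0.08 (adjusted p = 0.235), 0.19 ± 0.04 (adjusted p = 0.000301) and 0.47 ± 0.04 (adjusted p = 1.07e-09). *Retnlg* was low, at 37.2, 31.1 and 20.52 (29.6 ± 8.42) and 23.3, 28.6 and 19.7 (23.9 ± 4.46) normalized counts. It fell 1.73-fold under the cPLA_2_ WT (−0.79 ± 0.26, adjusted p = 0.0106) and 4.97-fold under the cPLA_2_ KO label (−2.31 ± 0.26, adjusted p = 6.76e-08). The former missed the threshold without nonconfined cPLA_2_ WT replicate 2 (−0.67, adjusted p = 0.0532) or without replicate 3 labelled LPS cPLA_2_ WT (−0.55, adjusted p = 0.0798). After scaling to equal totals *Retnlg* was called lower under the cPLA_2_ WT label too, where 4401 of 17875 genes were.

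Between the labels of the LPS libraries no gene of the 9 passed limma's test (adjusted p = 1.00 for each), nor did any of the 17875 genes (0% higher and 0% lower). At an unadjusted p under 0.05 the panel's count was 0 in limma, 0 in edgeR and 0 in DESeq2, and that over all genes 890, 812 and 831, with 0 past an adjusted p of 0.05 in each tool. Each gene overlapped between the labels.

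**Figure D3:**
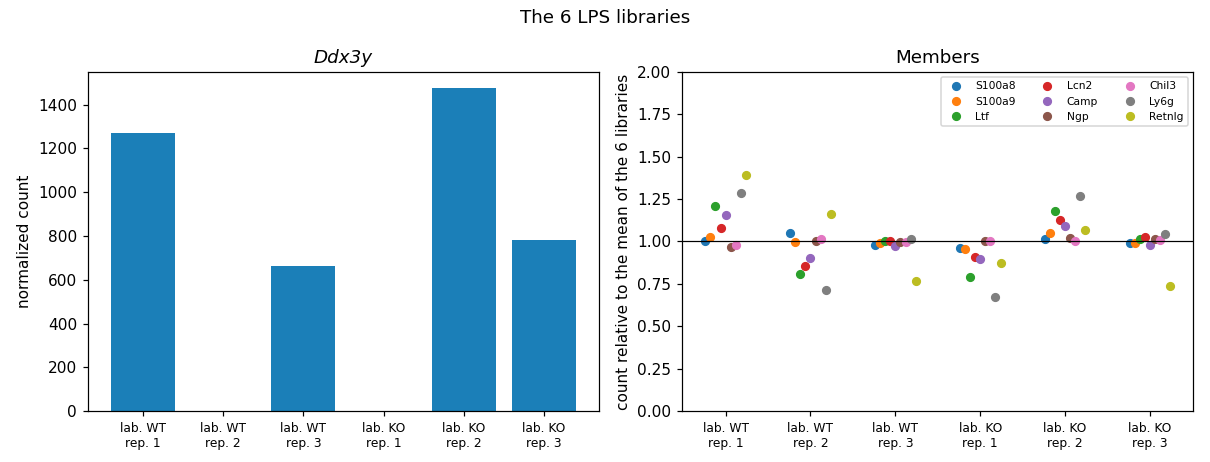
Left, normalized counts of *Ddx3y* (bars, linear axis from 0) in each of the 6 libraries labelled LPS, with values from 0 to 1476. Right, each of the 9 genes in the same libraries, as its count relative to the mean of the 6 (y axis, linear); *Ly6g*, *Retnlg* and *Ltf* spread most, with the highest 1.92, 1.88 and 1.53 times the lowest.

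Confined and LPS libraries were also compared with each other, although they differ in collection time. Under the cPLA_2_ WT label 8 of 9 genes were lower in confined cells (27.2% of all genes were), and *S100a9*, *Lcn2*, *Camp* and *Ly6g* were called lower, where 7.51% of all genes were. *S100a9* was 2.02-fold lower (−1.01 ± 0.05, adjusted p = 8.67e-13), *Lcn2* 2.58-fold (−1.37 ± 0.07, adjusted p = 2.18e-12), *Camp* 2.44-fold (−1.29 ± 0.08, adjusted p = 3.21e-11) and *Ly6g* 2.90-fold (−1.54 ± 0.19, adjusted p = 7.26e-07). *Retnlg* did not pass (−0.44 ± 0.26, adjusted p = 0.162), except without replicate 3 labelled LPS cPLA_2_ WT (−0.68, adjusted p = 0.0443). After scaling to equal totals *Lcn2* (−1.08) and *Ly6g* (−1.25) were called, where 895 of 17875 genes were called lower. *S100a9* (−0.72) and *Camp* (−0.998) were then lower but not called. The median was −0.996 for the panel and −0.02 for all genes. Under the cPLA_2_ KO label 4 genes were higher in confined cells (28.1% of all genes were) and 3 lower (30.6% were), with medians of 0.13 and 0.02. *Retnlg* was called higher (2.96-fold, 1.56 ± 0.26, adjusted p = 1.97e-05), where 10.4% of all genes were, and *Lcn2* lower (4.01-fold, −2.00 ± 0.07, adjusted p = 9.52e-16), where 12.6% were. Scaled to the same total, the median of all genes was 0.26 under the cPLA_2_ WT and 0.46 under the cPLA_2_ KO label, and under the latter *Camp* (−0.29 to 0.15) and *Ngp* (−0.10 to 0.35) changed direction. Under that label *Chil3* (0.48, adjusted p = 3.58e-10) and *Ly6g* (0.82, adjusted p = 0.000581) passed only after this scaling or in single alternatives. *Ngp* (−0.10 ± 0.04, adjusted p = 0.0446) and *S100a9* (0.13 ± 0.05, adjusted p = 0.0342) passed narrowly. *Ngp* missed the threshold in 5 of 6 fits with 1 library left out, with TMM, edgeR, DESeq2, no filter, and the compared conditions alone. *S100a9* missed it in 3 of those 6 fits, with no filter, and with the compared conditions alone.

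The 6 conditions were ordered by mean level for each gene, and neighbours in the order were tested among all 15 pairs of conditions. Confined cPLA_2_ WT was lowest for 8 genes, and for 7 of these, all but *Retnlg*, it lay below its neighbour by the test, for *Chil3* only narrowly (adjusted p = 0.0491). For *S100a8* the order was confined cPLA_2_ KO and nonconfined cPLA_2_ KO, which did not differ beyond their spread, then both LPS labels, which did not differ either, then nonconfined cPLA_2_ WT and confined cPLA_2_ WT. *S100a9* had the same order, but its 4 upper conditions formed a chain of neighbours that did not pass the test. *Camp* and *Ngp* shared that shape, with both LPS labels on top and the 4 upper neighbours not separated. Conditions further apart in such a chain could still differ on the authors' scale. *Ngp* was higher under the LPS cPLA_2_ KO label than in nonconfined cPLA_2_ KO (0.19, limma adjusted p = 0.000301). *Camp* was lower in confined cPLA_2_ KO than under that label (−0.29, adjusted p = 0.00447).

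*Ltf* was highest in nonconfined cPLA_2_ KO, then in confined cPLA_2_ KO, then in nonconfined cPLA_2_ WT and both LPS labels, which did not differ, and lowest in confined cPLA_2_ WT. *Ly6g* followed an order close to this, but only its lowest condition was separated from its neighbour. *Retnlg* was highest in nonconfined cPLA_2_ KO, then in confined cPLA_2_ KO and nonconfined cPLA_2_ WT, which were not separated, and lowest in both LPS labels and confined cPLA_2_ WT. *Chil3* had confined cPLA_2_ KO and both LPS labels on top, followed by both nonconfined conditions, which were not separated. *Lcn2* ran differently from all of these: both LPS labels, confined cPLA_2_ WT, nonconfined cPLA_2_ KO, confined cPLA_2_ KO and nonconfined cPLA_2_ WT, each step past the test except that between the LPS labels. The highest mean was 5.79 times the lowest for *Retnlg*, 5.13 for *Lcn2*, 4.99 for *Ly6g* and 3.94 for *Ltf*. It was 2.45 times for *Camp*, 2.28 for *S100a8*, 2.20 for *S100a9*, 1.89 for *Ngp* and 1.63 for *Chil3*. In total 21 of 45 neighbouring pairs differed.

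The S100 pair was followed by its ratio. Per kilobase of transcript, that of *S100a9* to *S100a8* ran from 1.45 to 1.69 over the 18 libraries (mean 1.58), while *S100a8* itself ranged from 38694 to 94682 normalized counts. Some conditions did not overlap in the ratio, with 1.499 to 1.520 in nonconfined cPLA_2_ KO and 1.562 to 1.621 in nonconfined cPLA_2_ WT libraries, a difference that was not tested. Pearson's correlation of log2 levels over the 18 libraries, which share the 6 conditions and so are not independent, is given as a description. It was 0.99 for *S100a8* and *S100a9*, 0.97 for *Ltf* and *Ly6g*, 0.95 for *Camp* and *Ngp*, and 0.84 for *Ltf* and *Retnlg*. *Lcn2* had −0.58 with *Retnlg*, −0.17 with *Ltf*, −0.0025 with *Ly6g*, 0.12 with *S100a8* and 0.22 with *S100a9*. Its values were higher with *Ngp* (0.43), *Camp* (0.48) and *Chil3* (0.55). *Chil3* had −0.07 with *Retnlg*, 0.29 with *Ltf* and 0.46 with *Ly6g*. It had 0.71 with *S100a8*, 0.73 with *Camp*, 0.75 with *S100a9* and 0.84 with *Ngp*.

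Among 11437 genes with a symbol and a mean of at least 50 normalized counts, those with the profile most like *S100a8* were *S100a9* (0.99), *Stfa3* (0.96), *Eif1b* (0.94), *Cyp11a1* (0.93) and *Cd177* (0.93). For *Ngp* they were *S100a9* (0.96), *Ly6a2* (0.95), *Hk3* (0.95), *Camp* (0.95) and *Stfa3* (0.94). *Stfa3*, a stefin, and *Cd177*, a neutrophil surface protein, are both genes of granulocytes. *Chil3* had other nearest profiles: *Spg21* (0.93), *Fpgt* (0.92), *Trp53inp2* (0.92), *C5ar1* (0.91) and *Chmp3* (0.91). Among the 5 genes closest to the mean profile of the 9 genes, *Stfa3* (0.99) was the 1 gene from outside it, and the other 4 are part of that mean.

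The genes lie in a few places of the genome (GRCm39, identifiers as in the table). *S100a8* (GSMG0034292, chr3:90576377-90577341, plus strand, 3 exons) and *S100a9* (GSMG0035593, chr3:90599938-90603028, minus strand, 3 exons) are 22596 bases apart, with no other entry of the table between them. *Camp* (GSMG0059875, chr9:109676443-109678524, minus strand, 4 exons), *Ngp* (GSMG0057515, chr9:110248876-110252078, plus strand, 4 exons) and *Ltf* (GSMG0057535, chr9:110848358-110871834, plus strand, 17 exons) follow each other at distances of 570351 and 596279 bases. The stretch from *Camp* to *Ltf* held 62 further entries, of which 23 were tested. Of those 23, 2 rose and 11 fell with confinement in cPLA_2_ WT cells (median −0.50), where 28.2% and 28.4% of all genes did. In nonconfined cPLA_2_ KO cells 1 was lower, where 4.11% of all genes were, and 22 did not pass (median −0.01). In confined cPLA_2_ KO cells 6 were higher and 3 lower (median 0.21), where 18.8% and 20.6% of all genes were, and the interaction was positive for 3 and negative for 2 past the test (median 0.26), where 10.2% and 15.6% of all genes passed. *Chil3* (GSMG0035850, chr3:106054870-106074880, minus strand, 11 exons), *Lcn2* (GSMG0031779, chr2:32274649-32277783, minus strand, 6 exons), *Ly6g* (GSMG0018488, chr15:75027110-75030977, plus strand, 4 exons) and *Retnlg* (GSMG0021002, chr16:48692971-48694861, plus strand, 4 exons) lie elsewhere. No other entry of the table overlapped any of the 9 genes.

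Promoters are shown for the S100 pair and for *Ltf*, *Ngp* and *Lcn2*. The first 4 fell in confined cPLA_2_ WT cells, as *Camp*, *Chil3*, *Ly6g* and *Retnlg* also did, whereas *Lcn2*, of the same granules as *Ltf* and *Ngp*, rose. C/EBP and PU.1 factors govern granulocyte genes, so a C/EBP-type motif (TTGCNNAA) and a PU.1-type motif (GAGGAAGT) were searched on both strands of 300 bases around each gene's start, of which the last 50 follow it. A match on the other strand is printed as it reads on the strand shown. The sequences are those of RefSeq (build GRCm38.p6); all 9 genes had an entry, and each window printed was found once in GRCm39. The windows are chr3:90576128-90576427 on the plus strand for *S100a8*, chr3:90602979-90603278 on the minus strand for *S100a9*, chr9:110848110-110848409 on the plus strand for *Ltf*, chr9:110248626-110248925 on the plus strand for *Ngp* and chr2:32277702-32278001 on the minus strand for *Lcn2*. Every printed window holds a match to 1 of the motifs, whereas the windows of *Camp* and *Chil3*, which are not printed, hold none. Matches are in capitals and each sequence is written 5′ to 3′ on the gene's own strand.
*S100a8*: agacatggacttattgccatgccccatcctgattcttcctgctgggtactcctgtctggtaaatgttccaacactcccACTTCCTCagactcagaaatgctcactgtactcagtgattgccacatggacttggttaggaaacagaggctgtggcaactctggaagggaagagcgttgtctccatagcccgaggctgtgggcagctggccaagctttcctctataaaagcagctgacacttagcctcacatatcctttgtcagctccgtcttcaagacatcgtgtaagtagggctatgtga
*S100a9*: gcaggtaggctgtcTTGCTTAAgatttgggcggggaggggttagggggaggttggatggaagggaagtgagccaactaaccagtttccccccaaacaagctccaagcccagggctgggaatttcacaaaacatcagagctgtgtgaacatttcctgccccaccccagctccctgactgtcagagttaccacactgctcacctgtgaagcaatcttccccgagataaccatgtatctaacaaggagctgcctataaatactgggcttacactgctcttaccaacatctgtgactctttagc
*Ltf*: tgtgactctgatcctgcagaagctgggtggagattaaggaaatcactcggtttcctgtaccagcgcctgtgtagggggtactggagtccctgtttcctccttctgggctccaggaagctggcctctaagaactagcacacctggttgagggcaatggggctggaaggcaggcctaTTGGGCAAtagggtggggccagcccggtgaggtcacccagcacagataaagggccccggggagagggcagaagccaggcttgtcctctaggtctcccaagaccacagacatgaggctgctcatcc
*Ngp*: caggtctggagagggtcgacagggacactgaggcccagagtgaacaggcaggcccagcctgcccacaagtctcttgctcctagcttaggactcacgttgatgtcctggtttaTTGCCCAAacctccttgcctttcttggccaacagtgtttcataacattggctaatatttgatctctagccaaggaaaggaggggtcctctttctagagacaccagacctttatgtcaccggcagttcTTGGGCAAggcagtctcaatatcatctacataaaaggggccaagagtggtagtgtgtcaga
*Lcn2*: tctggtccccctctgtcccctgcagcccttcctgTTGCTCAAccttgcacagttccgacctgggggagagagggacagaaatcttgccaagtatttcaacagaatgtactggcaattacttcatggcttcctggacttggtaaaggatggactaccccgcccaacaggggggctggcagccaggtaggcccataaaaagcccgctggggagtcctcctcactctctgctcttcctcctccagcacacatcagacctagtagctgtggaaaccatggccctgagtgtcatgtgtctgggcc

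The 9 genes had 10 promoter entries, of which 2 were of *Ly6g*. The C/EBP-type motif was present in 6 of these 10, against 10.8% of 32851 promoters. It began 236 bases before the start of *S100a9*, 75 before that of *Ltf*, 216 before that of *Lcn2*, and 138 and 11 before that of *Ngp*. *Retnlg* and 1 of the entries of *Ly6g* also had it, whereas the windows of *S100a8*, *Camp* and *Chil3* did not. The PU.1-type motif was present in *S100a8*, 172 bases before its start and in the reverse orientation, and in both entries of *Ly6g*, 3 of 10, against 3.20% of all promoters. The *Ly6g* windows overlap and share 1 of these sites, and by gene the motif was in 2 of 9. *Lcn2* thus carried the same type of motif as *Ltf* and *Ngp*, with another letter at the first of its free positions. A match describes the letters only, and binding was not measured.

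Other neutrophil genes were read from lists by granule and stage, in which the most abundant gene is that with the highest mean normalized count. Beside the counts of these lists stand the shares of all genes: 4.78% were higher and 4.11% lower in nonconfined cPLA_2_ KO cells, 28.2% rose and 28.4% fell with confinement in cPLA_2_ WT cells, 22.8% and 23.4% in cPLA_2_ KO cells, and 18.8% were higher and 20.6% lower in confined cPLA_2_ KO cells. Of 21 other specific and gelatinase granule genes, all tested, 14 were higher in nonconfined cPLA_2_ KO than in nonconfined cPLA_2_ WT cells and 7 did not pass, with a median of 0.50. *Mmp9*, the gelatinase, had means of 913 and 3738 normalized counts (2.03, adjusted p = 4.07e-05), and the neutrophil surface gene *Cd177* 5557 and 10203 (0.88, adjusted p = 1.18e-05). The list divided under confinement: 11 rose and 8 fell in cPLA_2_ WT cells, with a median of 0.27. *Mmp9* (−1.27, adjusted p = 0.000258) and *Lrg1* (−1.29, adjusted p = 2.15e-11) were called lower, whereas the formyl peptide receptor *Fpr1* (2.39, adjusted p = 4.72e-10) and the protease inhibitor *Slpi* (2.00, adjusted p = 9.37e-12) were called higher. In confined cells 11 were higher and 6 lower in cPLA_2_ KO (median 0.12), where 18.8% and 20.6% of all genes were. With LPS 15 rose and 3 fell under the cPLA_2_ WT label (median 0.56), where 33.4% of all genes rose and 29.4% fell. Under the cPLA_2_ KO label 13 rose and 8 fell (median 0.29), where 33.4% and 30.1% did. These list values are on the authors' scale, and equal totals moved the median over all genes to −0.469 and −0.444 for LPS. *Fpr1* (4.72 and 3.41) and the haptoglobin gene *Hp* (2.60 and 2.47) were higher under both labels. Several of these genes, such as *Itgam*, *Itgb2*, *Cybb* and *Cyba*, are also expressed by dendritic cells and macrophages, and *Itgam* was the most abundant (mean 55184 normalized counts).

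Primary granule genes are switched on earlier, in promyelocytes. Of the list's 9 tested genes, 0 passed between the nonconfined genotypes in limma, with 2 at an unadjusted p under 0.05, 1 past the adjusted threshold in edgeR and 2 in DESeq2, and the median there was 0.06. Confinement in cPLA_2_ WT cells lowered 7 of them, all 7 called (median −1.96), where 7.62% of all genes were. Neutrophil elastase, *Elane*, went from 968 to 133 normalized counts (−2.86, adjusted p = 1.39e-10) and myeloperoxidase, *Mpo*, from 2353 to 330 (−2.83, adjusted p = 1.44e-13). *Ctsc*, a protease that activates elastase and the most abundant of the list, rose (1.25, adjusted p = 7.32e-17). In confined cPLA_2_ KO cells 7 were higher than in confined cPLA_2_ WT cells and *Ctsc* was lower (8444 against 19376 normalized counts, −1.20, adjusted p = 2.33e-16; median of the list 1.34). The summed level of the list, with *Ctsc* in it, was 18055 ± 45.5 (SD, n = 3) in nonconfined and 23941 ± 514 in confined cPLA_2_ WT libraries, and 18867 ± 333 and 15887 ± 582 in the cPLA_2_ KO ones.

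Of 19 tested genes of mature neutrophils, 12 were higher and 2 lower in nonconfined cPLA_2_ KO cells (median 0.57), where 4.78% and 4.11% of all genes were. *Ceacam10* (858 against 1887 normalized counts, 1.14, adjusted p = 0.000215) was called higher. Confinement in cPLA_2_ WT cells raised 6 and lowered 8 (median −0.05). The C-type lectin receptor *Clec4e* (4.22) and the histidine decarboxylase gene *Hdc* (4.07), both also made by other stimulated myeloid cells, rose most, and *Ceacam10* (−1.15) was called lower. In confined cPLA_2_ KO cells 11 were higher and 4 lower than in confined cPLA_2_ WT cells (median 0.55). *Lypd2* had no read in any library. The summed level is weighted by abundant genes, of which *Il1r2* had the highest mean (22340) and went from 11825 to 52921 normalized counts in cPLA_2_ WT cells, with 24301 in confined cPLA_2_ KO cells. The list's summed level in cPLA_2_ WT libraries was 47635, 49116 and 48987 without and 134275, 128272 and 130049 with confinement. In cPLA_2_ KO libraries it was 64904, 59488 and 63344 without and 89183, 89771 and 89387 with confinement.

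Of 8 transcription factors that govern granulocyte genes, 3 were higher in nonconfined cPLA_2_ KO cells and 5 did not pass, with *Cebpe*, required for specific granules, at 1773 and 2307 normalized counts (0.38, adjusted p = 0.000964). With confinement 7 fell in cPLA_2_ WT cells, *Cebpe* to 943 (−0.91, adjusted p = 1.22e-10), while *Cebpb*, which is induced in inflammation, rose to 36702 from 8218 (2.16, adjusted p = 2.32e-15). In confined cells 7 of 8 were higher in cPLA_2_ KO, *Cebpe* by 0.68 (adjusted p = 2.60e-08).

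Of 11 tested receptors of the encoded proteins, 3 were higher in nonconfined cPLA_2_ KO cells and 8 did not pass. *Tlr4*, the receptor of S100A8 and S100A9, rose with confinement in cPLA_2_ WT (0.37, adjusted p = 4.81e-08) and in cPLA_2_ KO cells (0.75, adjusted p = 1.60e-12), and its co-receptor *Cd14* went from 1899 to 131510 normalized counts in cPLA_2_ WT cells (6.11, adjusted p = 4.17e-25). *Lrp2*, a receptor of lipocalin 2, had at most 3 reads in any library. Relatives from the same gene families were read as well. Of 9 other S100 genes tested, 2 were higher in nonconfined cPLA_2_ KO cells, *S100a6* (0.44, adjusted p = 0.000253) and *S100a11* (0.28, adjusted p = 0.00187), and with confinement in cPLA_2_ WT cells 2 fell and 7 did not pass, with a median of −0.08. *S100a11* was the most abundant at a mean of 22940 normalized counts.

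*Chil4*, the close paralog of *Chil3*, had a mean of 265 normalized counts, not scaled for length. Reads that fit both cannot be assigned from the table. Like *Chil3*, it changed more positively with confinement in cPLA_2_ KO cells (interaction 0.93, adjusted p = 0.000264). Of the 11 tested chitinase-like and alternative activation genes, 2 were higher and 1 lower in nonconfined cPLA_2_ KO cells, and 4 rose and 4 fell with confinement in cPLA_2_ WT cells. *Retnlb* had no read. Among 7 tested relatives of *Ly6g*, 1 was lower in nonconfined cPLA_2_ KO cells and 6 did not pass. The monocyte and granulocyte gene *Ly6c2* was at 3790 and 4188 normalized counts (0.14, adjusted p = 0.228), and *Ly6g2* had no read.

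Markers of other cells that the samples could hold were read beside these. Of 10 eosinophil genes, 8 were higher and 1 lower in nonconfined cPLA_2_ KO cells, 7 of those higher being called (median 1.33), where 0.850% of all genes were. With confinement in cPLA_2_ WT cells 8 fell, all called, and 1 rose and was called (median −2.11), where 7.62% of all genes were called lower and 11.4% higher. The eosinophil peroxidase gene *Epx* had means of 7005 and 17646 normalized counts in nonconfined cPLA_2_ WT and cPLA_2_ KO cells (1.33, adjusted p = 6.05e-05), and *Prg2*, the most abundant of the list, 17276 and 39761 (1.20, adjusted p = 1.69e-05). The eosinophil list's summed level in cPLA_2_ WT libraries was 34907, 34735 and 34727 before and 10153, 9676 and 9530 after confinement, and in cPLA_2_ KO libraries 85847, 79907 and 81823 before and 25924, 25498 and 26455 after. It was 49175, 28510 and 39268 under the LPS cPLA_2_ WT and 28526, 49391 and 40025 under the LPS cPLA_2_ KO label, high and low in the same libraries as *Ltf* and *Ly6g*. In cPLA_2_ KO cells 9 of 10 fell with confinement (median −1.82), where the S100 pair did not pass. No gene of the list was at 0 throughout.

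Of 10 mast cell and basophil genes, 6 were higher in nonconfined cPLA_2_ KO cells and 4 did not pass (median 0.53), and 7 fell with confinement in cPLA_2_ WT cells (median −1.51). The basophil protease genes *Mcpt8* (0.74, adjusted p = 1.78e-05) and *Prss34* (0.53, adjusted p = 0.000256) were among those higher. The summed level, led by *Hdc*, which the mature neutrophil list also holds, was 10619, 10668 and 10766 in nonconfined cPLA_2_ WT and 15854, 15383 and 15468 in nonconfined cPLA_2_ KO libraries. It was 17022, 16371 and 16913 in confined cPLA_2_ WT and 9125, 8814 and 9123 in confined cPLA_2_ KO libraries.

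Monocyte, macrophage and dendritic cell lists were read in the same way. Of 10 monocyte genes 3 were lower in nonconfined cPLA_2_ KO cells, where 4.11% of all genes were, and 7 did not pass (median 0.00), with a summed level of 44125 ± 986 (SD, n = 3) in cPLA_2_ WT and 44552 ± 1597 in cPLA_2_ KO libraries, and *Csf1r* the most abundant. Of 10 macrophage genes 4 were higher, among them the scavenger receptor gene *Marco* (156 against 723 normalized counts, 2.21, adjusted p = 3.83e-13), and 6 did not pass, with summed levels of 27814 ± 635 and 32877 ± 401, *Cd68* the most abundant and *Vsig4* without a read. Of 15 dendritic cell genes 4 were higher and 2 lower (median 0.19), where 4.78% and 4.11% of all genes were, with summed levels of 684821 ± 16995 and 807817 ± 33195. *Itgax*, which drives the Cre, was lower in nonconfined cPLA_2_ KO cells (−0.29, adjusted p = 0.00724). With confinement in cPLA_2_ WT cells 3 monocyte genes rose and 2 fell, 2 macrophage genes rose and 6 fell, and 3 dendritic cell genes rose and 10 fell, where 28.2% of all genes rose and 28.4% fell. In cPLA_2_ KO cells 4 monocyte genes rose and 2 fell, 2 macrophage genes rose and 6 fell (median −0.61), and all 15 dendritic cell genes fell (median −0.68), where 22.8% of all genes rose and 23.4% fell. The interaction was negative past the test for 10 of the 15 dendritic cell genes, where 15.6% of all genes passed. The part that any of these cell types has in the levels of the 9 genes was not tested.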

How the data were processed

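Reads had been aligned by the authors to mm39 with STAR 2.7.5a, counted with featureCounts 1.5.0 and normalized with DESeq2 in R 3.5.3. The deposited values are a normalized signal from which whole reads were recovered by 1 factor per library (100% of values whole within 0.01 reads). The test was limma 3.58.1 (R 4.3.3, trend) on log2(normalized count + 1), with 1 mean per condition and Benjamini-Hochberg adjustment over the 17875 genes that reached 10 normalized counts in 3 or more libraries. Count tests on recovered reads were edgeR 4.0.16 and DESeq2 1.42.0: confined against nonconfined cPLA_2_ WT gave 3400 calls in limma, 3393 in edgeR and 3502 in DESeq2. Figures used matplotlib 3.10.9. Named genes are the 9 genes of the panel and, from each list, up to 6 that were most abundant or called. The 9 genes and the lists were chosen with earlier results of these data known. Alternatives covered pseudocounts, filters, scalings, tools, a replicate block, the study's own 1.5-fold rule on unadjusted p, and each library left out. Added after the data were seen were all 6 LPS against all 6 nonconfined libraries, a fit without the LPS libraries, and alternatives of the order.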

Additional observations from a re-analysis of the deposited data

Results flagged for a closer look

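For 8 of the 9 genes the change with confinement differed between cPLA_2_ WT and cPLA_2_ KO cells by limma's interaction test. The difference was positive for 7, where 10.2% of all genes passed in that direction, and negative for 1, where 15.6% did. The differences, as the log2 fold change in cPLA_2_ KO minus that in cPLA_2_ WT, were 0.674 for *S100a8*, 0.710 for *S100a9* and 0.605 for *Chil3*. They were 0.575 for *Ngp*, 0.479 for *Camp*, 0.499 for *Ltf* and 0.874 for *Ly6g*. Those of *Ltf* and *Ly6g* each missed the threshold in 2 of 12 fits with 1 library left out. *Lcn2* had −1.24, its level rising in cPLA_2_ WT and falling in cPLA_2_ KO cells.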

How the results depend on the processing

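Over 1647 recomputed values of single genes, 1556 kept direction and side of the threshold, 38 lost the threshold, 28 gained it and 25 reversed. Where a value moved, the cause was not tested unless stated. With every library scaled to the same total, the panel's calls were 2 in the interaction, 1 between nonconfined genotypes, 2 and 4 for LPS under the cPLA_2_ WT and cPLA_2_ KO labels, and 2 for confined against LPS under the cPLA_2_ WT label. Over all 17875 genes the calls at that scaling were, in the same order, 1508, 218, 6124, 6057 and 2802. Reversed there, for LPS under the cPLA_2_ WT label, were *S100a8* (−0.162), *S100a9* (−0.142), *Ngp* (−0.108) and *Ly6g* (−0.285). Under the cPLA_2_ KO label *Camp* (−0.365), *Ngp* (−0.286) and *Chil3* (−0.0102) reversed, as did *Camp* (0.150) and *Ngp* (0.345) for confined against LPS. *Camp* (0.116) and *Chil3* (0.0448) lost the threshold for LPS under the cPLA_2_ WT label, and *Ltf* (−0.556) gained it, as did *S100a9* (−0.542) under the cPLA_2_ KO label. That scaling moved the median of all genes to −0.469 and −0.444 for LPS. The share of calls that were higher went from 59.9% to 43.0% for confinement in cPLA_2_ WT, from 14.4% to 33.6% in the interaction and from 27.6% to 41.2% between confined genotypes. It went from 55.0% to 28.1% and from 53.9% to 28.2% for LPS, and from 45.7% to 68.1% and from 45.3% to 71.6% for confined against LPS.

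At a 1.5-fold change and an unadjusted p under 0.05, a wider rule by construction, the calls were 7 and 1 for confinement in cPLA_2_ WT and cPLA_2_ KO, 5 in the interaction, and 4 and 8 between nonconfined and confined genotypes. Over all 17875 genes that rule gave, in the same order, 6167, 4227, 2956, 1000 and 3475 calls. The panel's calls were 3 and 4 for LPS under the cPLA_2_ WT and cPLA_2_ KO labels and 8 for confined against LPS under the cPLA_2_ WT label. There 7699, 7853 and 4688 of 17875 genes were called. All 6 LPS against all 6 nonconfined libraries gave 2 calls in the panel and 5010 over 16935 genes. In that comparison *Ly6g* (−0.291), *S100a8* (0.0796) and *S100a9* (0.155) lay opposite to their value under 1 label. Without the 6 LPS libraries the panel's counts stayed at 3, 0, 1, 2 and 5, where 3369, 2127, 1380, 245 and 1759 of 17255 genes were called. With a replicate block, every count of calls in the panel was the same, and *Chil3* in confined cPLA_2_ WT cells lost the threshold. Replicate numbers were not used as pairs, since in no comparison did residuals of equal numbers correlate above 0.1 in all 3 replicates. The values were 0.183, 0.106 and −0.0638 for confinement in cPLA_2_ WT, and 0.338, 0.208 and 0.0402 between confined genotypes, where 3 of 3 confined cPLA_2_ KO and 2 of 3 confined cPLA_2_ WT libraries correlated best with their own number.

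Leaving out 1 library at a time gave 3 to 3 calls for confinement in cPLA_2_ WT, 0 to 0 in cPLA_2_ KO, 1 to 1 in the interaction, 1 to 2 and 5 to 6 between nonconfined and confined genotypes, 1 to 1 and 2 to 4 for LPS, 0 to 0 between LPS labels, and 3 to 5 and 2 to 2 for confined against LPS. With every library kept, the calls over all 17875 genes were, in the same order, 3400, 2139, 1371, 206, 1805, 4889, 4986, 0, 2472 and 4109. Between LPS labels the ranges crossed 0 for *S100a9* (−0.0457 to 0.0228), *Ltf* (−0.16 to 0.14), *Lcn2* (−0.0350 to 0.14), *Camp* (−0.11 to 0.0728), *Chil3* (−0.00478 to 0.0238) and *Ly6g* (−0.25 to 0.23), and for LPS under the cPLA_2_ WT label for *Ltf* (−0.19 to 0.11). Over all alternatives, 19 to 27 of 45 neighbouring conditions differed in the order. Depth limits *Retnlg* most, with 16 to 182 reads.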
